A study of Mus musculus with 6 samples.

Results

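The 10 genes described here encode the signals with which the epithelium of the gut keeps and positions the lymphocytes that live between its cells: the cytokines Il15 and Il7 with Il15ra, the chemokines Ccl25 and Cxcl16, the butyrophilin-like genes Btnl1, Btnl2, Btnl4 and Btnl6, and Cdh1 (E-cadherin). They were taken by symbol from a list of names, and all were found among the 51912 genes of the tables. All 10 passed the low-count filter that left 13644 genes for testing. The RNA came from epithelial cells sorted from the small intestine, the mice were C57BL/6, and each of 3 groups had 2 libraries. Antigen-free (AF) mice, replicates 2 and 3, met foreign antigens of neither a microbiota nor food. Germ-free (GF) mice, replicates 1 and 3, had no microbiota, and specific pathogen free (SPF) mice, replicates 3 and 4, were free of particular pathogens only. No genotype besides the strain, no age and no diet composition is stated in the labels.

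Intraepithelial lymphocytes are T cells, many of them carrying CD8 or a gamma-delta receptor, that sit among the enterocytes. Epithelial cells present interleukin-15 to them on the interleukin-15 receptor alpha chain, while Ccl25 and Cxcl16 are the ligands of the lymphocyte receptors Ccr9 and Cxcr6. Mouse Btnl1 pairs with Btnl6 on enterocytes and selects Vgamma7 gamma-delta T cells, and E-cadherin is the ligand of the CD103 integrin (Itgae with Itgb7) that tethers the lymphocytes.

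The 4 butyrophilin-like genes lie in a 163 kb stretch of chromosome 17 (GRCm38, 34354822 to 34517352) beside class II genes of the major histocompatibility complex such as H2-Eb1. Btnl2 (34354822 to 34369495) and Btnl1 (34377132 to 34386028) are on the plus strand, and Btnl4 (34466562 to 34477318) and Btnl6 (34507804 to 34517352) on the minus strand. Promoter windows of 250 bases before to 50 after a RefSeq start site, credited to RefSeq on GRCm38.p6, were given for 6 of the 10 genes: Il15ra, Ccl25 and the 4 Btnl genes. The start sites of Btnl1, Btnl2 and Btnl6 are the gene ends just given, whereas that of Btnl4 lies 1381 bases inside the annotated gene; the second windows of Il15ra and Ccl25 start 422 and 24378 bases inside theirs. The windows of Btnl4 and Btnl6 are shown because the 2 genes are near copies of each other, which bears on how reads are split between them, and because both stood lower in AF. In this pair of lines, capitals mark each base that differs from the other gene or has no partner in the alignment.
Btnl4 promoter, chr17:34475888-34476187, minus strand: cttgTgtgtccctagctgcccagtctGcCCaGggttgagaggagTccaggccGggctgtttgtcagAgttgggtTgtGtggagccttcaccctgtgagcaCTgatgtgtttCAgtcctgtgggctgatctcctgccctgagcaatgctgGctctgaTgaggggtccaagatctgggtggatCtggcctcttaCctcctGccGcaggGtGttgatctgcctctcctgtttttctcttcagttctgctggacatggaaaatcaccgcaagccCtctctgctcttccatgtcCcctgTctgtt
Btnl6 promoter, chr17:34517303-34517602, minus strand: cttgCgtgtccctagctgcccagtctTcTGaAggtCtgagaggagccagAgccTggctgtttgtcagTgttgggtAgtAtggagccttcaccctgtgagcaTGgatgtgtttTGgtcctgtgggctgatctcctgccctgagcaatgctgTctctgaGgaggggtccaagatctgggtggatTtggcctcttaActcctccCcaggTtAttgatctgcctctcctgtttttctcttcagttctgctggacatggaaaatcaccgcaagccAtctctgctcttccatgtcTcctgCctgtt
The 2 windows were 92.3% identical over 298 aligned bases, with 23 substituted bases. The longest protein-coding transcripts of Btnl4 and Btnl6 were 89.8% identical over 1620 aligned bases, whereas no other pair of the 4 Btnl genes aligned over more than 121 bases. RSEM, which splits reads that fit several genes, gave a posterior standard deviation of at most 0.122% of the count for Btnl4 and 0.0564% for Btnl6.

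The windows of Btnl2 and Btnl1 are shown beside them because these neighbours did not share one pattern across the libraries in CPM, a scale explained below. Capitals mark the one motif found in each.
Btnl2 promoter, chr17:34354572-34354871, plus strand: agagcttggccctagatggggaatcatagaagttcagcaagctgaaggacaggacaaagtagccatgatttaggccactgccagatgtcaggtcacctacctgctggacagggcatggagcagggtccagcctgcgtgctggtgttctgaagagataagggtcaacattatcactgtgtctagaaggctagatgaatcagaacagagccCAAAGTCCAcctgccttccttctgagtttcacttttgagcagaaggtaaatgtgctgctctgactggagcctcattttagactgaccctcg
Btnl1 promoter, chr17:34376882-34377181, plus strand: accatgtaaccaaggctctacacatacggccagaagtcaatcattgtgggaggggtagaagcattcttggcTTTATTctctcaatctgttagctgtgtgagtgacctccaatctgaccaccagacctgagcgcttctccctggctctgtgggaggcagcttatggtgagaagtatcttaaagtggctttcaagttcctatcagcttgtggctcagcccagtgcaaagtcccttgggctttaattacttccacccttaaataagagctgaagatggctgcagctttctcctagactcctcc
The Btnl2 window held the HNF4 word CAAAGTCCA at -41 to -33 from the start, a word present in 0.475% of all 32851 mouse windows of this length. The Btnl1 window held the CDX2 word TTTATT at -179 to -174, and the second window of Ccl25 held TTTATG on the opposite strand at -192 to -187; either CDX2 word occurs in 27.6% of all windows. Neither the GAS word TTCNNNGAA, in 8.3% of all windows, nor the core of the interferon-stimulated response element (GAAA, any 2 bases, GAAA), in 3.44%, was found in a window of these genes, and those of Btnl4, Btnl6 and Il15ra held none of the 4 motifs. Both strands were searched, and a match of letters is a description of the window only.

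The libraries held 16109488 to 19417054 expected counts. Levels are CPM, expected counts scaled to a library's TMM-normalised total, where 1 count was worth 0.0365 to 0.0785 CPM, or TPM, RSEM's per-length unit, where genes are compared with each other. Libraries of one group differed in cell make-up. In the order of replicates just given, 13 markers of mature villus enterocytes, such as Alpi, Apoa4 and Sis, had a geometric mean of 1441 and 1067 CPM in AF, 744 and 1296 CPM in GF, and 1043 and 2330.5 CPM in SPF, and 10 crypt stem cell markers summed to 202 and 251 CPM in AF, 491 and 242 CPM in GF, and 395 and 114 CPM in SPF. The 10 tuft cell markers summed to 317 and 297 CPM in AF, 155 and 210.3 CPM in GF, and 99.0 and 19 CPM in SPF, the reverse of the group order of Btnl1, Btnl4 and Btnl6. Of the tuft markers, 9 of 10 were higher in AF than SPF at an unadjusted edgeR p below 0.05, and 0 were called. Of all genes, 11.3% passed that unadjusted threshold in either direction. Enteroendocrine markers summed to 2639 and 3465 CPM in AF, 1675 and 4109 CPM in GF, and 1437 and 352 CPM in SPF. All 12 were above SPF in both AF libraries, beside 22% of all genes. Goblet markers summed to 14039 and 12710.5 CPM in AF, 11936 and 16899 CPM in GF, and 29204 and 2809 CPM in SPF, and Paneth markers to 1052 and 2203 CPM in AF, 5635 and 930.5 CPM in GF, and 1389 and 42.0 CPM in SPF. The part of these differences in the results was not tested beyond a fit with a crypt score. Epithelial identity markers were even as a set, with a geometric mean of 499.9 to 543 CPM, but not singly. Krt18 had 474 and 447 CPM in AF and 290.2 and 122 CPM in SPF. Cdh17 went the other way, with 541 and 537 CPM in AF and 798 and 1029 CPM in SPF. The Y-linked Kdm5d stood at 15.4 to 18.2 CPM in the AF and GF libraries and at 0 in both SPF libraries. Xist stood at 0 to 0.178 CPM in AF, 0.109 and 14.8 CPM in GF, and 129.7 and 96.6 CPM in SPF. In comparisons with SPF, sex thus cannot be told apart from group. GF replicate 3 held Xist (14.8 CPM) beside Kdm5d (17.9 CPM), so AF and GF are not shown to be matched for sex either. Every group bears its own date-like mark, which cannot be told apart from the group, and nothing says that libraries came from separate mice, so p-values measure the spread between these samples only. In bulk RNA, fewer cells of a type and less RNA per cell cannot be told apart.

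Per length, the 10 genes covered a wide range. Mean levels over the 6 libraries were 344 TPM for Ccl25, 165 TPM for Btnl2, 116 TPM for Btnl1, 91.8 TPM for Btnl6 and 83.2 TPM for Cdh1. Il15 followed at 35.2 TPM, Btnl4 at 26.9 TPM, Cxcl16 at 12.9 TPM, Il15ra at 10.4 TPM and Il7 at 0.355 TPM. Ccl25 exceeded 98.5% of the tested genes and Btnl2 96.5%, whereas Il7 exceeded 5.89%. Neighbours in this order overlapped in their ranges over libraries, except that Cdh1 (48.0 to 136 TPM) stayed above Il15 (24.5 to 46.7 TPM) and Il15ra (5.48 to 16.7 TPM) above Il7 (0.04 to 0.82 TPM).

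**Figure D1:**
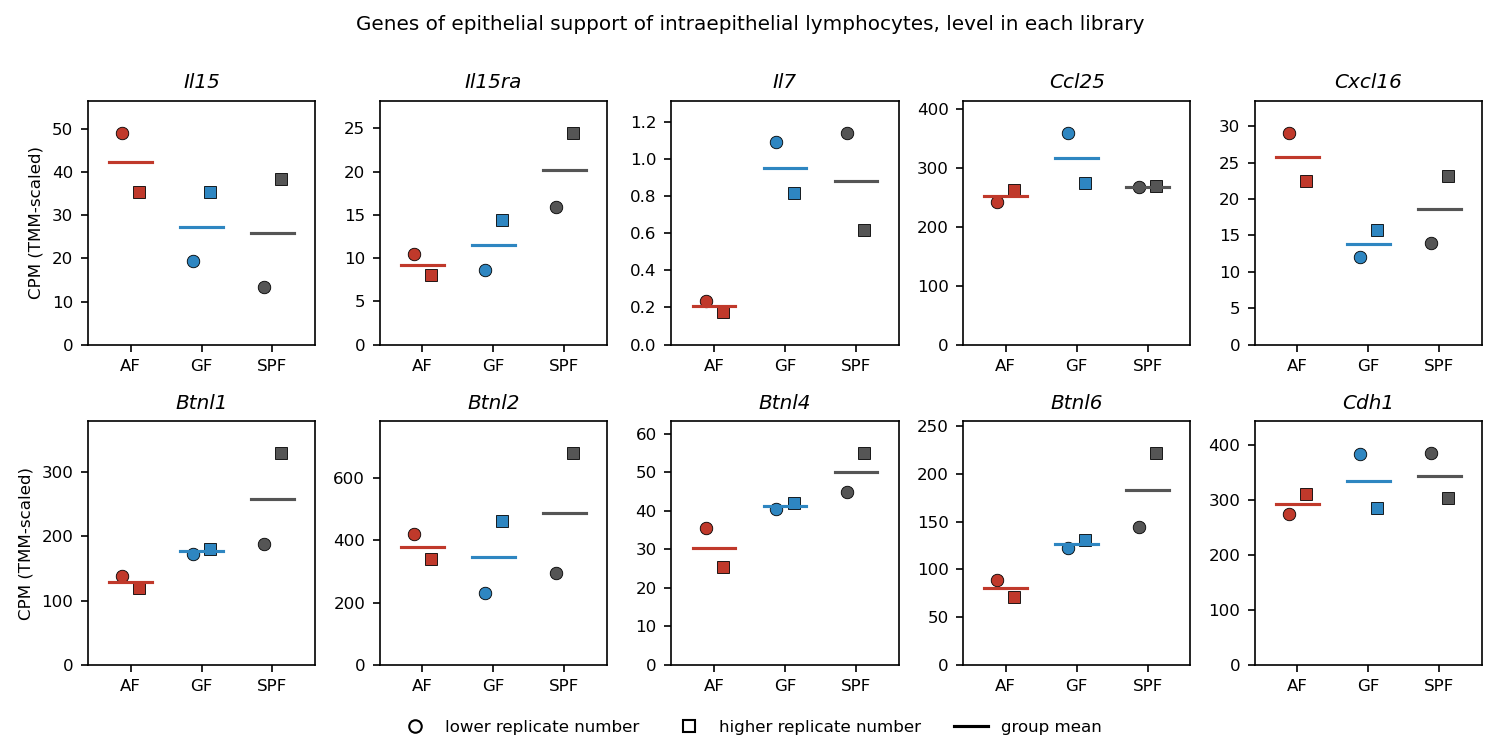
Level of each of the 10 genes in CPM (vertical axes from 0, one scale per gene) in the 2 libraries of AF, GF and SPF; points are libraries and lines group means. Btnl1, Btnl4 and Btnl6 step up through AF, GF and SPF with no library of one group reaching the next, whereas Il15 and Btnl2 spread as widely within GF and SPF as between groups.

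Among the genes of cytokine supply, Il15 tended high and Il15ra low in AF. Il15 (chromosome 8, 82331632 to 82403222) had 49.1 and 35.4 CPM in AF, 19.4 and 35.3 CPM in GF, and 13.3 and 38.3 CPM in SPF. Both AF libraries lay above both GF libraries, narrowly in the closest pair (35.4 against 35.3 CPM), and SPF replicate 4 lay between the AF values. The log2 fold change was 0.63 (SE 0.54) in AF versus GF, 0.71 (SE 0.54) in AF versus SPF and 0.08 (SE 0.54) in GF versus SPF, with edgeR adjusted p = 1, 0.658 and 0.974. Without SPF replicate 4 the values against SPF were 1.66 for AF and 1.02 for GF.

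Il15ra, which holds interleukin-15 at the cell surface for its neighbours (chromosome 2, 11705290 to 11734317), had 10.5 and 8.02 CPM in AF, 8.64 and 14.4 CPM in GF, and 15.9 and 24.5 CPM in SPF. Every AF and GF library was below both SPF libraries, and AF and GF overlapped. In AF versus SPF the log2 fold change was -1.12 (SE 0.37; edgeR unadjusted p = 0.0215, adjusted p = 0.389), and in GF versus SPF -0.81 (SE 0.36; adjusted p = 0.738), or -0.48 without SPF replicate 4. In TPM, which is scaled to the library total and not by TMM, the libraries of a group were closer, at 5.50 and 5.48 TPM in AF, 9.42 and 8.44 TPM in GF, and 16.6 and 16.7 TPM in SPF, so that on this scale AF also lay below GF. The AF versus GF log2 fold change was -0.60 with library totals alone, and -0.31 both with TMM and with effective lengths added to it.

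The RNA ratio of ligand to receptor chain did not overlap between the 3 groups. The ratio of Il15 to Il15ra, in TPM within a library, was 8.49 and 6.41 in AF, 3.67 and 3.71 in GF, and 1.48 and 2.32 in SPF. It does not depend on how libraries are scaled to each other. Taken on expected counts, without lengths, the ratio was 4.66 and 4.41 in AF, 2.24 and 2.45 in GF, and 0.839 and 1.56 in SPF. With 2 libraries against 2, an exact permutation test cannot go below p = 0.333, and the ratio is given as a description. The share of other gene pairs whose ratio separates the groups in this way was not counted. The main edgeR test called neither gene in any comparison.

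Il7, a survival factor for T cells (chromosome 3, 7569994 to 7613760), was near the limit of detection. It had 3 expected counts in each AF library, 30 and 12 in GF, and 25 and 9 in SPF, or 0.236 and 0.178 CPM in AF, 1.09 and 0.814 CPM in GF, and 1.14 and 0.617 CPM in SPF. The AF values did not overlap those of the other groups. Summed over libraries and scaled, the AF level was 0.204 times that of GF (95% exact binomial interval 0.0708 to 0.482) and 0.217 times that of SPF (0.0746 to 0.524), intervals that cover counting error only. The edgeR adjusted p was 1 in AF versus GF and 0.4 in AF versus SPF. RSEM's effective length for Il7 was 4681 to 4682 bases in AF and 1943 to 2352 in GF and SPF, so the TPM values differ further than the counts.

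Of the chemokines, Ccl25 was even in CPM and Cxcl16 stood high in AF. Ccl25, which draws Ccr9-bearing lymphocytes to the small intestine (chromosome 8, 4325210 to 4360020), had 243 and 263 CPM in AF, 359.8 and 275 CPM in GF, and 267 and 269.7 CPM in SPF. AF lay below both other groups and GF above SPF, although 263 CPM in AF replicate 3 and 267 CPM in SPF replicate 3 are close. The log2 fold changes were -0.33 (SE 0.27) in AF versus GF, -0.08 (SE 0.27) in AF versus SPF and 0.24 (SE 0.27) in GF versus SPF. In TPM the groups overlapped, at 201 and 286 TPM in AF, 619 and 265 TPM in GF, and 426 and 266 TPM in SPF.

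Cxcl16, a chemokine made as a membrane protein and shed by proteases (chromosome 11, 70453983 to 70459984), had 29.1 and 22.5 CPM in AF, 12 and 15.7 CPM in GF, and 14.0 and 23.2 CPM in SPF. Both AF libraries lay above both GF libraries, and SPF replicate 4 lay among the AF values. The log2 fold change was 0.89 (SE 0.32) in AF versus GF, with edgeR unadjusted p = 0.0301 and adjusted p = 1, and 0.48 (SE 0.32) in AF versus SPF. Of the 3 sheddases listed for Cxcl16 and Cdh1, Adam10 had 26.2 and 27.8 CPM in AF, 41.0 and 33.4 CPM in GF, and 54.1 and 44.6 CPM in SPF, with a log2 fold change of -0.87 (SE 0.20, adjusted p = 0.361) in AF versus SPF. Adam17 averaged 13.8, 14.7 and 16.7 CPM and Adam9 12.3, 14.6 and 15.4 CPM in AF, GF and SPF.

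Btnl1, Btnl4 and Btnl6 shared one order, lowest in AF and highest in SPF. Btnl6, the partner of Btnl1 in the heteromer that gamma-delta T cells meet, had 89.1 and 71.3 CPM in AF, 123 and 131 CPM in GF, and 144 and 222 CPM in SPF. No library overlapped another group. The log2 fold change was -1.19 (SE 0.29) in AF versus SPF, with edgeR unadjusted p = 0.00658 and adjusted p = 0.381, the smallest p among the 10 genes, and -0.66 (SE 0.29) in AF versus GF and -0.53 (SE 0.29) in GF versus SPF.

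Btnl1 had 139 and 119.9 CPM in AF, 173 and 181 CPM in GF, and 188 and 329.6 CPM in SPF. Its groups were also apart, although the upper GF library was near SPF replicate 3. The log2 fold change was -1.0 (SE 0.33) in AF versus SPF, with edgeR adjusted p = 0.389, -0.45 (SE 0.33) in AF versus GF and -0.55 (SE 0.33) in GF versus SPF. Without SPF replicate 4 the AF versus SPF values were -0.54 for Btnl1 and -0.85 for Btnl6, and those of GF versus SPF -0.09 and -0.19.

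Btnl4, whose role is less well known than that of Btnl1 and Btnl6, had 35.5 and 25.4 CPM in AF, 40.5 and 42.0 CPM in GF, and 45.0 and 55.0 CPM in SPF. The log2 fold change was -0.71 (SE 0.23) in AF versus SPF, with edgeR adjusted p = 0.389, -0.44 (SE 0.23) in AF versus GF and -0.28 (SE 0.23) in GF versus SPF. In CPM, an order of AF below GF below SPF without overlap was found in 3 of the 10 genes, namely these, and in 4% of all tested genes. In TPM the GF and SPF libraries of Btnl4 overlapped.

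Btnl2, a butyrophilin-like protein known as an inhibitor of T cell activation, did not follow that order in CPM. It had 422 and 339 CPM in AF, 231 and 464 CPM in GF, and 296 and 681 CPM in SPF. The 2 GF libraries lay on either side of both AF libraries, as did the 2 SPF libraries, so all 3 groups overlapped. The log2 fold changes were 0.13 (SE 0.52) in AF versus GF, -0.36 (SE 0.52) in AF versus SPF and -0.49 (SE 0.52) in GF versus SPF. Without SPF replicate 4 the last 2 were 0.36 and 0.23. In TPM, however, Btnl2 had the order of AF below GF below SPF without overlap. It stood at 127 and 136 TPM in AF, 146 and 163 TPM in GF, and 173 and 245 TPM in SPF. The share of all tested genes with this order in TPM was not counted. With mitochondrial genes left out of the TPM total, AF overlapped GF and GF overlapped SPF. The values were then 194 and 192 TPM in AF, 184 and 242 TPM in GF, and 219 and 350.4 TPM in SPF.

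**Figure D2:**
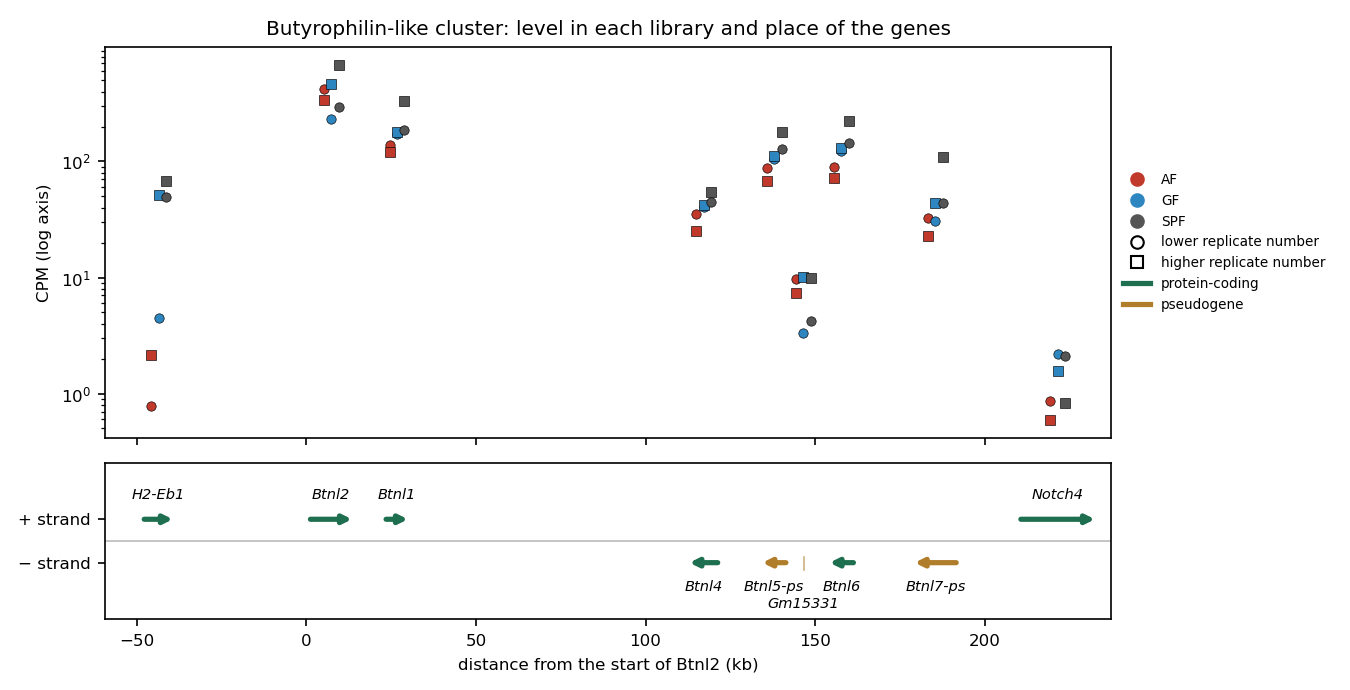
Butyrophilin-like cluster and its flanking genes: upper panel, CPM of each gene in each library on a log axis, placed at the gene's middle; lower panel, genes as arrows in their direction of transcription (Gm15331, too short for an arrow, as a tick), by distance from the start of Btnl2 in kb. Btnl1, Btnl4, Btnl6 and the pseudogenes Btnl5-ps and Btnl7-ps have AF values below both SPF libraries, Btnl2 and the pseudogene Gm15331 do not, and H2-Eb1 ranges from 0.785 to 67.2 CPM.

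The plot of the cluster also shows 3 pseudogenes by annotation that passed the low-count filter. Btnl5-ps, between Btnl4 and Btnl6, had 88.4 and 67.5 CPM in AF, 104 and 111 CPM in GF, and 127 and 180 CPM in SPF, the order of its neighbours. Its log2 fold change was -0.98 (SE 0.28) in AF versus SPF, with edgeR unadjusted p = 0.0121 and adjusted p = 0.389. Btnl7-ps, beyond Btnl6, had 32.8 and 22.7 CPM in AF, 30.9 and 44.1 CPM in GF, and 43.8 and 109 CPM in SPF. Gm15331, between Btnl5-ps and Btnl6, did not follow them, with 9.74 and 7.31 CPM in AF, 3.35 and 10.2 CPM in GF, and 4.21 and 9.81 CPM in SPF, which overlap, and a log2 fold change of 0.29 (SE 0.63, adjusted p = 0.906) in AF versus SPF. The posterior standard deviation was at most 0.153% of the count for the 3. The flanking H2-Eb1 had 0.785 and 2.14 CPM in AF, 4.45 and 51.0 CPM in GF, and 49.0 and 67.2 CPM in SPF, and Notch4 on the far side 0.594 to 2.19 CPM in all libraries.

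The make-up of the butyrophilin-like group varied between libraries, within groups as well as between them. The sum of the 4 genes was 246 and 264 TPM in AF, 463 and 349.7 TPM in GF, and 503 and 572 TPM in SPF, with no overlap between groups on this scale. In CPM the sum was 686 and 556 CPM in AF, 568 and 818 CPM in GF, and 673 and 1288 CPM in SPF, and all groups overlapped. Of the sum in TPM, Btnl2 made up 51.7 and 51.3% in AF, 31.5 and 46.6% in GF, and 34.3 and 42.9% in SPF. Btnl6 made up 17.6 and 17.2% of the TPM sum in AF, 26.7 and 21.3% in GF, and 27.0 and 22.5% in SPF. The ratio of Btnl6 to Btnl1, its partner in the heteromer, was narrower in TPM, at 0.725 and 0.669 in AF, 0.796 and 0.827 in GF, and 0.873 and 0.764 in SPF. AF libraries had the lowest of these ratios, and GF and SPF overlapped. How often other sums, shares or ratios of genes separate the groups in this way was not counted.

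**Figure D3:**
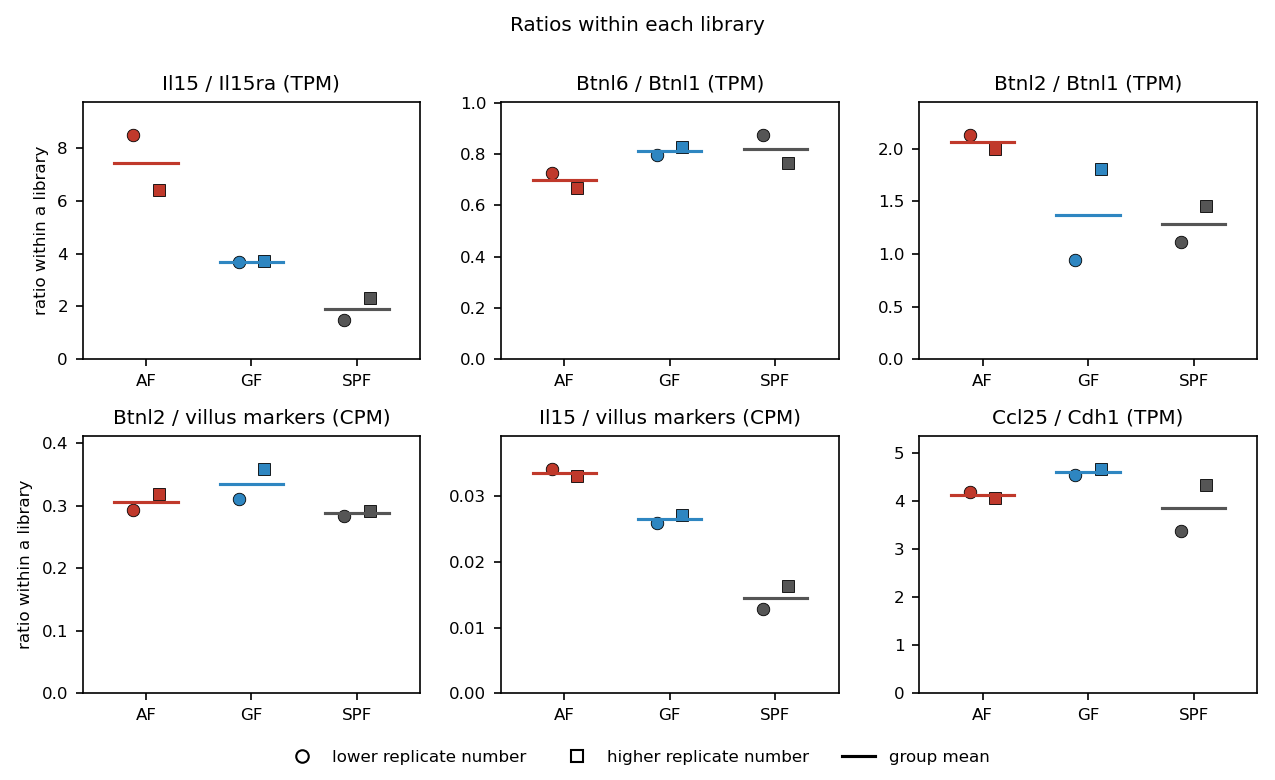
Ratios of 6 kinds within each library (vertical axes from 0), with points for libraries and lines for group means; upper row and lower right in TPM, the 2 villus ratios in CPM over the geometric mean of the villus markers in CPM. Il15 over Il15ra is highest in AF (8.49) and lowest in SPF (1.48), and Btnl2 over the villus markers stays within 0.284 and 0.358.

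Set against the 13 villus markers, Btnl2 hardly varied. Its CPM divided by their geometric mean was 0.293 and 0.318 in AF, 0.311 and 0.358 in GF, and 0.284 and 0.292 in SPF, a 1.26-fold range where the CPM alone spanned 2.95-fold. Only 0.198% of all tested genes had a range as narrow or narrower by this measure, itself one of 10 such values computed, and the next of the 10 genes, Il15ra, stood at 12.3%.

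By the same division, Il15 was 0.0341 and 0.0331 in AF, 0.0260 and 0.0272 in GF, and 0.0128 and 0.0164 in SPF. The groups were apart, with AF highest, whereas in CPM SPF overlapped the others; 2.15% of all tested genes had this order without overlap, and 1 of the 10 genes. Btnl1 was 0.0968 and 0.112 in AF, 0.233 and 0.139 in GF, and 0.180 and 0.141 in SPF, and Btnl6 0.0619 and 0.0668 in AF, 0.165 and 0.101 in GF, and 0.139 and 0.0954 in SPF. For both, AF stayed below the other groups while GF and SPF overlapped. Btnl4 per villus marker was 0.0246 and 0.0238 in AF and 0.0431 and 0.0236 in SPF, which overlap.

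Cdh1, the adherens junction cadherin of all epithelial cells (chromosome 8, 106603351 to 106670246), was among the steadiest of the 10 in CPM only. It had 275 and 311 CPM in AF, 384 and 285 CPM in GF, and 386 and 304 CPM in SPF, a 1.40-fold range. In TPM it ranged from 48.0 to 136, or 2.84-fold. Divided by the villus markers, its CPM ranged 3.96-fold, and 53% of all tested genes had a range as narrow or narrower. Groups overlapped in every comparison, and the log2 fold changes were -0.19, -0.24 and -0.04 (SE 0.30 each) in AF versus GF, AF versus SPF and GF versus SPF. The ratio of Ccl25 to Cdh1 in TPM was 4.18 and 4.07 in AF, 4.54 and 4.66 in GF, and 3.37 and 4.33 in SPF. This 1.38-fold range was about that of either gene alone in CPM, 1.48-fold for Ccl25 and 1.40-fold for Cdh1. Of the 10 tested junction partners of Cdh1, edgeR, DESeq2 and limma called 0 in any comparison, edgeR had 0 at an unadjusted p below 0.05, and the median log2 fold change was -0.12, -0.24 and -0.19 in the same order. Cdh17, another intestinal cadherin, had 541 and 537 CPM in AF, 702 and 613 CPM in GF, and 798 and 1029 CPM in SPF, and the p120 catenin gene Ctnnd1 averaged 209.9 CPM in AF, 232 CPM in GF and 314 CPM in SPF. Nectin3 averaged 48.1 CPM in AF, 54.0 CPM in GF and 62.3 CPM in SPF.

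**Figure D4:**
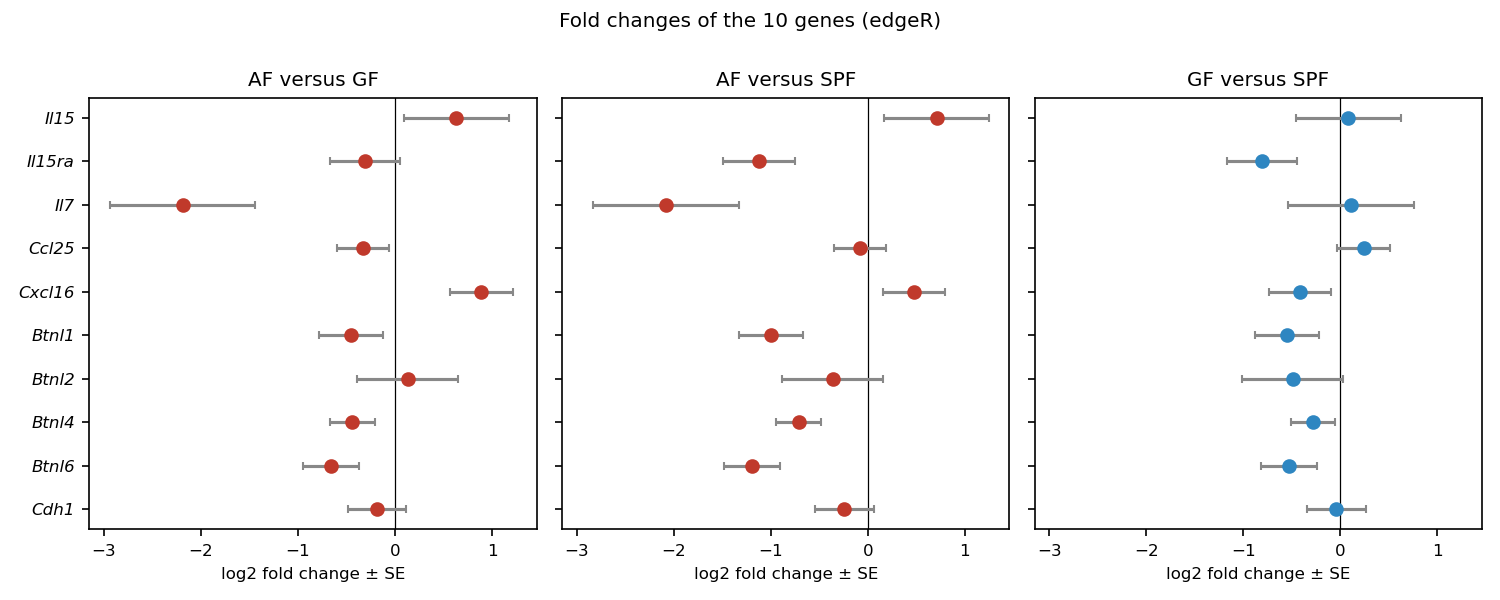
Log2 fold change of each gene with its standard error from edgeR, one panel per comparison, the first-named group over the second. In AF versus SPF 8 of the 10 values are below 0, led by Il7, Btnl6 and Il15ra; Il15 and Cxcl16 are above 0.

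Over the 10 genes, the quasi-likelihood test of edgeR, with adjustment across the 13644 genes tested, called 0 in each comparison, and 0 in the test for any difference among the groups. The same rule called 0.0147% of all genes in AF versus GF, 0.044% in AF versus SPF, 0.0147% in GF versus SPF and 0.0293% for any difference. At an unadjusted p below 0.05 there were 2 of the 10 genes in AF versus GF (Il7 and Cxcl16), beside 3.6% of all genes. There were 5 in AF versus SPF (Il15ra, Il7, Btnl1, Btnl4 and Btnl6), beside 11.3%, and 0 in GF versus SPF, beside 6.71%. For any difference there were 2 (Btnl6 and Il15ra), beside 7.33%. DESeq2 called 0, 1 and 0 of the 10 in the 3 comparisons, beside 51, 269 and 80 of all 13644 genes. The 1 was Btnl6 in AF versus SPF, at a log2 fold change of -1.20 and DESeq2 adjusted p = 0.0324. With limma on log2(TPM + 1), 0 were called of the 9 left after a TPM filter that dropped Il7. Without the low-count filter edgeR called 2 in AF versus SPF, Btnl6 at adjusted p = 0.017 and Il15ra at adjusted p = 0.0351. That fit called 804 of 22763 genes in this comparison.

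Counted by overlap of libraries, 2 of the 10 genes were above GF in both AF libraries (Il15 and Cxcl16) beside 15.8% of all genes, and 5 below (Il7, Ccl25, Btnl1, Btnl4 and Btnl6) beside 17.8%. In AF versus SPF, 0 were above beside 22% and 6 below beside 22.6%, the same 5 with Il15ra. In GF versus SPF, 1 was above (Ccl25) beside 16.8% and 4 below (Il15ra, Btnl1, Btnl4 and Btnl6) beside 17.1%. The median log2 fold change of the 10 genes was -0.32 in AF versus GF, -0.54 in AF versus SPF and -0.35 in GF versus SPF, beside -0.023, 0.011 and 0.022 over all tested genes. These comparisons share libraries and are not independent of each other.

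Genes that receive these signals are those of lymphocytes, and the group mean of each tested one was lowest in AF. All 10 tested genes of the 12 lymphocyte partners had negative log2 fold changes in AF versus GF (median -3.06) and in AF versus SPF (median -2.76), beside 52.9% and 49.1% of all genes. Both AF libraries lay below both GF libraries in 7 and below both SPF libraries in 9, beside 17.8% and 22.6% of all genes. edgeR called 0 of them in either, with 5 and 2 at an unadjusted p below 0.05, beside 3.6% and 11.3%. DESeq2 called 0 and 1 (Itgae), beside 51 and 269 of all 13644 genes, and limma on log2(TPM + 1) called 0 and 0. Without GF replicate 3 the median in AF versus GF was -0.63, with 8 of the 10 values negative. Itgae, which binds E-cadherin, had 1.18 and 1.13 CPM in AF, 2.62 and 21.0 CPM in GF, and 14.7 and 5.21 CPM in SPF. Il2rb, the chain that takes up presented interleukin-15, had 1.65 and 0.951 CPM in AF, 2.48 and 22.1 CPM in GF, and 8.43 and 2.54 CPM in SPF. GF replicate 3 was highest for both genes, and GF replicate 1 was nearer to AF than to it.

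The chemokine receptors were scarcer. Ccr9 had 0.157 and 0.357 CPM in AF, 0.365 and 3.60 CPM in GF, and 2.38 and 1.51 CPM in SPF, and Cxcr6 0.157 and 0 CPM in AF, 0.109 and 1.70 CPM in GF, and 0.641 and 0.754 CPM in SPF. Il2rg had 0.314 and 0.238 CPM in AF, 0.401 and 4.07 CPM in GF, and 2.43 and 1.10 CPM in SPF. The gamma-delta receptor constant genes Trdc, Tcrg-C1, Tcrg-C2 and Tcrg-C4 stood at 0.157 to 1.01 CPM in the AF libraries, 0.365 to 1.46 CPM in GF replicate 1, 3.53 to 9.57 CPM in GF replicate 3 and 0.754 to 5.31 CPM in SPF. For each of these receptor genes GF replicate 3 was above GF replicate 1, which was nearer to AF than to GF replicate 3. Itgb7 differed least, at 3.61 and 3.03 CPM in AF, 2.59 and 8.82 CPM in GF, and 5.86 and 2.13 CPM in SPF. Il7r and Klrg1 were below the filter, at 0 to 0.136 CPM.

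**Figure D5:**
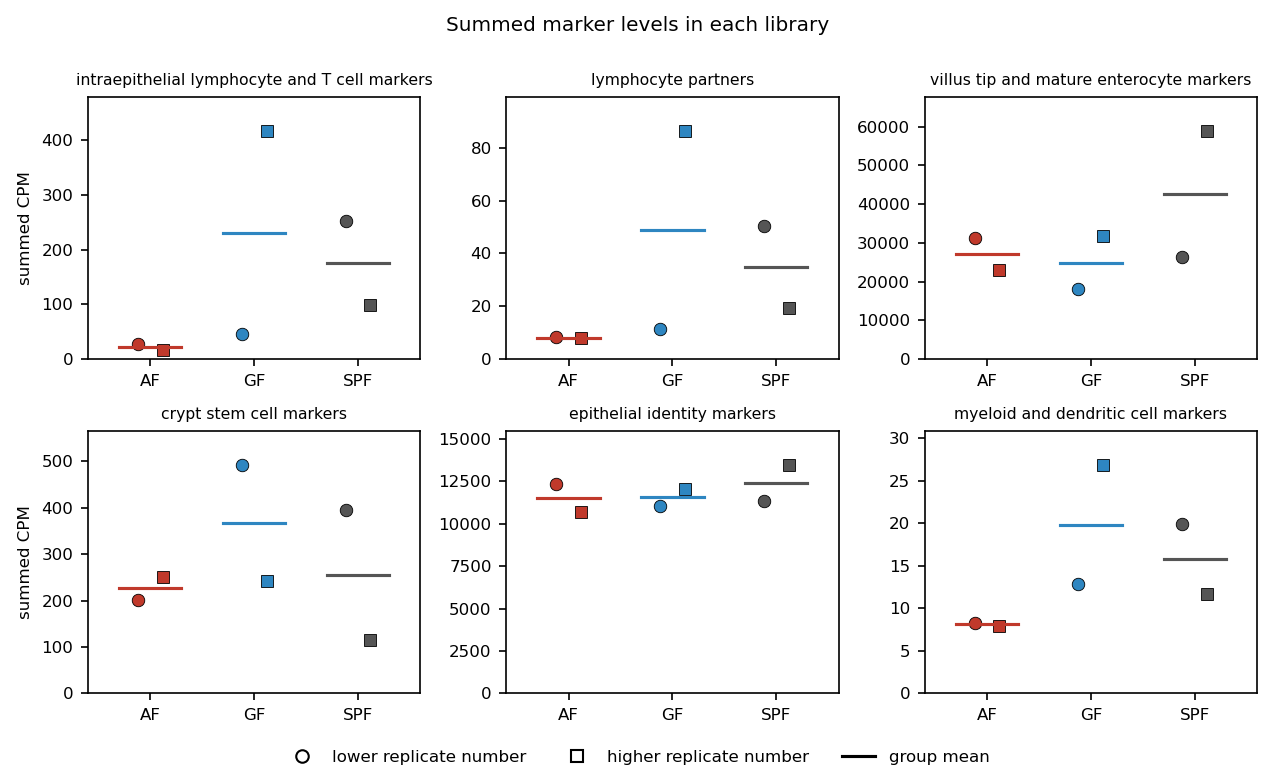
Summed CPM of 6 marker lists in each library (vertical axes from 0), with points for libraries and lines for group means. Lymphocyte sums are lowest in AF and highest in GF replicate 3, villus markers are highest and crypt markers lowest in SPF replicate 4, and epithelial identity markers are even as a sum.

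The 24 markers of intraepithelial lymphocytes and T cells summed to 27.0 and 17.5 CPM in AF, 45.2 and 416 CPM in GF, and 252 and 99.0 CPM in SPF. The libraries thus held lymphocyte RNA in unequal amounts, and its part in the values of Il15ra, Il7 and the other genes was not tested beyond a fit with a lymphocyte score as covariate. In that fit the log2 fold changes of Il15ra were 0.099 in AF versus GF and -0.74 in AF versus SPF, against -0.31 and -1.12 without the score. Those of Il7 were -2.23 and -2.13, of Btnl6 -0.70 and -1.23, and of Btnl1 -0.56 and -1.11, in the same order, and 0 of the 10 genes were called, as without the score. Markers of myeloid and dendritic cells, which also express Il15 and Il15ra, summed to 8.25 and 7.96 CPM in AF, 12.9 and 26.8 CPM in GF, and 19.9 and 11.7 CPM in SPF, with Xcr1 at 0 in all libraries. The 8 markers of B and plasma cells summed to 0.157 to 3.62 CPM and the 12 of stromal and endothelial cells to 6.38 to 12 CPM. Proximal small intestine markers summed to 9085 and 6079.7 CPM in AF, 6102 and 10604 CPM in GF, and 10817 and 26465 CPM in SPF, and their part in these results was not tested.

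Other epithelial signals to lymphocytes showed the Btnl order in some genes. Of 20 tested, 15 had negative log2 fold changes in AF versus GF, 16 in AF versus SPF and 17 in GF versus SPF. Over all tested genes the shares were 52.9%, 49.1% and 48.1%. edgeR called 0, with 4, 5 and 5 at an unadjusted p below 0.05, beside 3.6%, 11.3% and 6.71% of all genes, and limma called 0. DESeq2 called 1 (Aldh1a1), 3 (Cx3cl1, Tnfsf10 and Aldh1a1) and 1 (Il18), beside 51, 269 and 80 of all 13644 genes. Without SPF replicate 4, 11 of 22 tested were negative in GF versus SPF. Cx3cl1, the membrane chemokine fractalkine, had 44.3 and 42.0 CPM in AF, 56.7 and 61.1 CPM in GF, and 84.2 and 107 CPM in SPF, with a log2 fold change of -1.15 (SE 0.21, adjusted p = 0.304) in AF versus SPF. Tnfsf10, which encodes the death ligand TRAIL, had 22.0 and 24.9 CPM in AF, 33.3 and 33.0 CPM in GF, and 49.0 and 51.8 CPM in SPF, with -1.10 (SE 0.18, adjusted p = 0.26). Aldh1a1, a retinoic acid enzyme chosen here after its values were seen, had 47.6 and 40.6 CPM in AF, 242 and 126 CPM in GF, and 124 and 333 CPM in SPF. Il18 differed in its order, with 39.9 and 44.1 CPM in AF, 25 and 20.6 CPM in GF, and 44.1 and 50.2 CPM in SPF. The 5 more distant butyrophilin relatives were below the filter, at a summed 0 to 0.0729 CPM.

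Among 13 transcription factors listed as possible regulators, edgeR, DESeq2 and limma called 0. At an unadjusted p below 0.05 edgeR had 0, 2 and 1 in AF versus GF, AF versus SPF and GF versus SPF. The shares of all genes at that threshold were 3.6%, 11.3% and 6.71%. Their log2 fold changes were negative in 4 in AF versus GF, in 11 in AF versus SPF and in 11 in GF versus SPF. Over all tested genes the shares were 52.9%, 49.1% and 48.1%. Without SPF replicate 4, 7 were negative in AF versus SPF (median -0.01) and 10 in GF versus SPF (median -0.19). With limma on log2(TPM + 1) the 3 counts were 12 of 12, 11 and 10. Cdx2, an intestinal homeobox factor, averaged 61.0 CPM in AF, 68.8 CPM in GF and 90.6 CPM in SPF, and Gata4, a factor of the proximal gut, 77.0 CPM in AF, 63.7 CPM in GF and 106 CPM in SPF. In the 10 genes of interleukin-15 and interleukin-7 signalling, the 3 tools called 0 as well. At an unadjusted p below 0.05 edgeR had 0, 2 and 2, beside the same shares of all genes, 3.6%, 11.3% and 6.71%. Stat3 averaged 71.0 CPM in AF, 72.3 CPM in GF and 135 CPM in SPF, and its target Socs3 41.8, 43.5 and 81.5 CPM. Bcl2 averaged 1.19, 3.69 and 1.51 CPM.

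Likeness of pattern was measured as the root mean square difference of centred log2 CPM over the 6 libraries, against 8735 genes of at least 5 CPM. The closest genes were Pgrmc1 (0.043) and Mogat2 (0.046) for Btnl1, Gpcpd1 (0.053) and Rhou (0.056) for Btnl6, Fam114a1 (0.036) and Dab2ip (0.075) for Btnl4, and Aspscr1 (0.071) and Espn (0.079) for Btnl2. Mogat2, a monoacylglycerol acyltransferase of fat absorption, is a gene of enterocytes. For Il15ra they were Rab11fip4 (0.084) and B2m (0.092), the light chain of class I molecules, and for Il15 Msh5 (0.135) and Otop3 (0.137). Ccl25 was nearest to Ttc13 (0.048) and Apopt1 (0.066), Cxcl16 to Ifrd1 (0.081) and Srebf1 (0.082), and Cdh1 to Psmd7 (0.03) and Serinc3 (0.04). Il7, at its low counts, was nearest to Cyba (0.222) and Enpep (0.373). Such differences are smaller for genes that vary little. The root mean square of the gene's own centred values was 0.83 for Il7, 0.177 for Ccl25 and 0.194 for Cdh1. Between members the smallest difference was 0.122, for Btnl1 and Btnl6, and the largest 1.378, for Il15 and Il7; Il15 and Il15ra were 0.847 apart.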

How the data were processed

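Per the submitters' processing notes, reads were handled with STAR (2.5.2b), RSEM and edgeR (3.16.5) on GRCm38/mm10. The sources used here name no RSEM version, annotation release or strand setting. Per the file headers, the authors deposited RSEM expected counts per gene, unscaled, and TPM values, scaled by RSEM for effective length and to a fixed total. Effective length and posterior standard deviation came from the same tables. Counts were rounded (23.5% of values above 0 were not whole); 51633 of 51912 IDs matched a GENCODE M21 symbol. Libraries of a group differed beyond sampling noise (chi-square per gene 44.6 to 239), so no library was counted as a repeat deposit of another; this does not show that they came from separate mice.

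After edgeR's filterByExpr, its quasi-likelihood F test used all 6 libraries (3 residual degrees of freedom, TMM factors 0.791 to 1.41), with Benjamini-Hochberg adjustment over 13644 genes and a call at adjusted p below 0.05. TMM assumes that most genes do not differ, and 17.9 to 35.3% of counts were mitochondrial, which lowers the TPM of other genes. The fits were tested on simulated data. The 10 genes and all lists were chosen with earlier results of these data known. The rule for named genes took all 10, every tested lymphocyte partner, up to 3 genes of each other list that concerns them with the smallest p for any difference, and the 2 genes most like each; 1 gene under this rule is not reported here. DESeq2, limma, other scalings, filters, covariates and left-out libraries were alternatives. Versions were DESeq2 1.42.0, limma 3.58.1, edgeR 4.0.16, R 4.3.3, Biopython 1.88 and Python 3.11.15.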

Additional observations from a re-analysis of the deposited data

How the results depend on the processing

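Over all genes, the edgeR quasi-likelihood counts of 2 called in AF versus GF, 6 in AF versus SPF, 2 in GF versus SPF and 4 for any difference moved, in this order, to 53, 298, 97 and 266 with the likelihood ratio test, to 264, 804, 484 and 937 with no low-count filter, to 51, 269, 80 and 204 with DESeq2, to 17, 118, 8 and 48 with a crypt score as covariate and to 0 in each with a lymphocyte score. With only the 2 groups compared they were 8, 2 and 0. Library totals alone gave 4 in AF versus GF and 0 in GF versus SPF, effective lengths as offsets 1 in AF versus GF, and limma on log2(TPM + 1) 9, 5 and 11 in AF versus GF, GF versus SPF and for any difference. Leaving out 1 library gave 0 to 9, 0 to 625, 0 to 369 and 0 to 136, the highest without SPF replicate 3 each time.

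Of the 10 genes, those called in AF versus SPF (main count 0) were 2 with no low-count filter, 1 with DESeq2, 1 with the crypt score (Il15, log2 fold change 1.33, adjusted p = 0.0399) and 0 to 2 with 1 library left out. The 2 came without SPF replicate 3 (Btnl1 -1.35, adjusted p = 0.0475; Btnl6 -1.47, adjusted p = 0.0403). No low-count filter called 1 for any difference. No alternative called a member in AF versus GF or GF versus SPF.

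Library totals alone moved the median of all genes by -0.35, -0.21 and 0.14 in AF versus GF, AF versus SPF and GF versus SPF, and limma on TPM by -0.37, -0.33 and 0.04. Signs turned as follows. In AF versus GF this was so for Btnl2 with library totals (-0.12) and limma (-0.23), and for Il15ra with the lymphocyte score (0.099). In AF versus SPF Btnl2 turned with the crypt score (0.12) and the lymphocyte score (0.045). In GF versus SPF, Il15 turned with effective lengths (-0.058), Il7 with effective lengths (-0.051) and the crypt score (-0.11), Btnl2 with the crypt score (0.0079) and Cdh1 with library totals (0.11). With 1 library left out, ranges that crossed 0 were, in AF versus GF, Il15ra -0.63 to 0.10, Btnl2 -0.28 to 0.72 and Cdh1 -0.39 to 0.045, in AF versus SPF Btnl2 -0.84 to 0.36, and in GF versus SPF Il15 -0.50 to 1.02, Il7 -0.26 to 0.63, Btnl2 -1.08 to 0.23 and Cdh1 -0.28 to 0.15. The cause was not tested. The other 372 results and alternatives kept side and sign, as did 166 with a library left out; a group left with 1 library is assumed to vary like the others. TPM without mitochondrial genes raised the levels, and Btnl2 lost its order of AF below GF below SPF on that scale. No paired analysis was possible because any 2 groups share only 1 replicate number.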
